A study of Mus musculus with 8 samples.

Results

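The genes for the proteins of the cytosolic ribosome were followed in the gastrocnemius, a calf muscle, of mice without AMPKα1 or AMPKα2 (KO) and of their wild-type (WT) controls. They were chosen by name: protein coding genes in the deposited table whose symbol begins with Rpl or Rps and a digit, together with Rplp0 to Rplp2 and Rpsa, leaving out the Rps6k kinases and symbols marked as pseudogenes. This gave 70 of 15378 genes (44 of the large subunit and 26 of the small subunit by symbol) and 142 of 56483 alternative polyadenylation sites (APSs). The family was taken up because the APSs of Rpl3 and Rpl11 were already known to lose their reads in AMPKα2 KO libraries, so every value from the AMPKα2 comparison is given as a description, with no p-value. Rps19bp1, a protein that binds RPS19 and is no ribosomal subunit, matched by name and was kept. Other ribosomal protein genes were not analysed here.

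Each model had 2 KO and 2 WT male mice with 1 WTTS-seq library per mouse, 8 libraries in all. WTTS-seq (whole transcriptome termini site sequencing) reads the end of polyadenylated RNA, so that a count belongs to an APS and needs no correction for transcript length. AMPKα1 and AMPKα2 are the alternative catalytic subunits of AMP-activated protein kinase, encoded by Prkaa1 and Prkaa2. The KO mice carried the null allele on both chromosomes (AMPKα1-/- or AMPKα2-/-), and each allele lacks the DNA for part of the catalytic domain. The labels give C57BL/6 for all mice, whereas the study's methods name 129S2/SvPas for AMPKα1 KO and give about 6 weeks of age for AMPKα1 KO and about 8 weeks for AMPKα2 KO. The age of the WT mice was not given in the sources used here. An effect of the deleted gene on a difference between the models therefore cannot be told apart from age, strain or library preparation.

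Ribosomal proteins clothe the rRNA of the small and large subunits, and most are present once per ribosome. Their mRNAs begin with a run of pyrimidines that places translation under the control of mTORC1, a kinase complex that AMPK restrains. Many of their introns carry small nucleolar RNAs (snoRNAs), which are cut out of the intron and guide chemical modification of rRNA. Box C/D snoRNAs guide 2′-O-methylation and H/ACA snoRNAs guide pseudouridylation. Skeletal muscle also has ribosomal protein paralogs, of which Rpl3l is the striated muscle form of Rpl3.

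The 8 libraries held between 2311242 and 3549156 counted reads, the fewest in AMPKα1 WT 1. Levels are given in RPM (reads per 1000000 counted reads of the library). Fibre genes (11 of 11 markers in the table, Acta1, Ckm and Myh4 among them) took 80900 to 119000 RPM in AMPKα1 and 48900 to 62600 in AMPKα2 libraries, without overlap. Within AMPKα1 they took 80900 to 88700 RPM in KO and 101000 to 119000 in WT, also without overlap. In AMPKα2, KO (48900 to 62600) and WT (49700 to 54400) overlapped. Satellite cell markers stayed at 0.291 to 45.5 RPM and blood markers at 497 to 978, while adipocyte markers reached 2580 in AMPKα1 KO 2 against 585 to 682 in the other 3 libraries of that model. Fibroblast markers were at 9690 to 16000 RPM in AMPKα1 and 1620 to 2240 in AMPKα2 libraries, endothelial markers at 278 to 323 and 35.6 to 60.8, and Schwann cell markers at 559 to 1370 and 54.8 to 224. The part of these cells in differences between models or between KO and WT was not tested. The table could not check the genotypes. The APSs of Prkaa1 were intronic or antisense, and Prkaa2, whose 3′ end lies outside the deleted part, had 40 and 71 reads in AMPKα2 KO against 87 and 62 in WT. In bulk muscle, fewer cells of a type and less RNA per cell cannot be told apart.

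The 3′ ends shown first are those on which the KO comparisons turned. Rpl3 (chr15:80077792-80077821, minus strand, exon) and Rpl11 (chr4:136049947-136049976, minus strand, exon) encode a core protein and a 5S rRNA-binding protein of the large subunit. Rplp0 (chr5:115563486-115563515, plus strand, exon) encodes the base of the ribosomal stalk, Rpl23 (chr11:97778033-97778062, minus strand, exon) a protein of the subunit interface, and Rpl36al (chr12:69182738-69182767, minus strand, exon) a copy of Rpl36a. The last 3 carried the lowest p-values of the AMPKα1 comparison. The last 30 bases before each APS (GENCODE M21 transcripts, GRCm38, 5′ to 3′), with the polyadenylation signal AATAAA or ATTAAA in capitals, were:
Rpl3: ggtctcaccAATAAAatatttctactcaca
Rpl11: aaaagctAATAAAattttctcagaaatgca
Rplp0: gatggaAATAAAggcttacttctcttaaaa
Rpl23: aatatattcATTAAAgtctctgctctgaga
Rpl36al: tgctagagAATAAAgttactgttaatgata

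The signal began 21 to 24 bases before the APS in these 5 genes. The Rpl3 site lay 1 base before the annotated gene end, and that of Rpl11 at -21682 bases from the end of its longer GENCODE gene model. Of the highest exonic APS of each member, 44 of 53 (83.0%) had AATAAA or ATTAAA on the transcript strand within 40 bases, and 65.7% of 8823 such sites over all protein coding genes did. AATAAA alone was present in 73.6% of the former and 52.3% of the latter. None of the 13 exonic member sites at the 3′ end of a snoRNA gene carried either signal.

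Those sites formed another set on which the data turned. Inside 26 of the ribosomal protein genes, 46 APSs lay within 10 bases of the annotated 3′ end of a snoRNA on the same strand, and the table assigned 22 of them to the host gene and 24 to the snoRNA. The sequences below (GENCODE M21, GRCm38) are shown because their ends took some of the highest counts or lay in Rpl3. Capitals mark ACA within the last 8 bases or, for box C/D, TGATGA within the first 15 and CTGA within the last 15 bases.
Snora7a: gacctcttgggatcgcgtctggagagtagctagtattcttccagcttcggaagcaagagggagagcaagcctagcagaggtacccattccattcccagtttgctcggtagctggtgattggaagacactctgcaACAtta
Snord100: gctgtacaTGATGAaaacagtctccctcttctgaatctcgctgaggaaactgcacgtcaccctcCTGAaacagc
Snord83b: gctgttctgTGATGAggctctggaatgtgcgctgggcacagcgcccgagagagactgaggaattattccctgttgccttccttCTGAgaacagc
Snord21: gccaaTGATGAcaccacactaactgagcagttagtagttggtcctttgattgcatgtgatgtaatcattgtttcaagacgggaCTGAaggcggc

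Snora7a lies in Rpl32 (chr6:115807975-115808114, minus strand), Snord100 in Rps12 (chr10:23785750-23785823, minus strand), Snord83b in Rpl3 (chr15:80078498-80078591, minus strand) and Snord21 in Rpl5 (chr5:107904555-107904648, plus strand). Of the 46 snoRNAs, 17 held the C/D letters, 17 held ACA and not the C/D letters, and 12 neither. Among all 1558 annotated snoRNA and scaRNA genes, 19.1% held the C/D letters and 46.8% held ACA without them.

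The 70 genes took 1.72% and 1.88% of reads in AMPKα1 KO, 1.59% and 1.68% in AMPKα1 WT, 0.431% and 0.611% in AMPKα2 KO and 0.663% and 0.578% in AMPKα2 WT. The group means ± SD (n = 2 libraries each), in that order, were 1.80% ± 0.114, 1.63% ± 0.0674, 0.521% ± 0.127 and 0.621% ± 0.0600. By these library totals, KO and WT did not overlap in the AMPKα1 model, where KO was higher, and overlapped in the AMPKα2 model. The TMM factors of the gene-level fit were 1.05 and 1.13 in AMPKα1 KO and 0.813 and 1.03 in AMPKα1 WT. Divided by these factors, the shares of the AMPKα1 groups overlap, so the direction depends on the scaling. An exact permutation test of 2 against 2 libraries cannot go below p = 0.333 and so cannot pass 0.05. With ribosomal protein pseudogenes (74 genes) added, the AMPKα1 groups overlapped, with a mean of 2.15% in KO and 2.24% in WT. AMPKα1 WT 1 gave 0.909% of its reads to pseudogenes and the other 3 libraries of that model 0.300% to 0.346%.

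Mean levels over the 8 libraries ran from 1540 RPM for Rpl13 to 0.721 RPM for Rpl27. Rpl13, of the large subunit, led with 2862 and 3293 RPM in AMPKα1 KO, 1623 and 2212 in WT, 512.4 and 610.3 in AMPKα2 KO and 635.6 and 575.4 in WT. Rplp1, an acidic stalk protein, had 2896 and 2767, 1724 and 2607, 223.3 and 480.2, and 450.8 and 441.8 in the same order. KO exceeded WT for both genes in the AMPKα1 libraries, but the edgeR fits gave log2 fold changes of only 0.44 ± 0.31 (SE, adjusted p = 0.763) and 0.16 ± 0.32 (adjusted p = 0.999). Rps9, Rpl26, Rpl39, Rpl14, Rpsa, Rps15 and Rpl41 were also among the 10 highest, at 302 to 832 RPM as a mean over the 8 libraries. These 10 genes made up 69.2% and 66.6% of the family's reads in AMPKα1 KO, 59.2% and 61.2% in AMPKα1 WT, and 46.0% to 49.9% in the AMPKα2 libraries.

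At the other end, 16 members had means under 10 RPM and 14 had no read in at least 1 library. Rpl28 was seen only in AMPKα1 KO 2, with 32 reads, and Rpl27 only in AMPKα1 KO 2 and AMPKα1 WT 2, with 17 and 2 reads. Rps23, Rps16 and Rpl36 had means of 1.83, 1.90 and 1.91 RPM. Rps23 lies at the decoding centre of the small subunit and Rps16 reaches toward its P site. The counts are of the APSs that reached the table, and RNA read at an APS not in it was not analysed here. The plot of the members by library shows this fall from Rpl13 to Rpl27 and the gap between models.

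**Figure D1:**
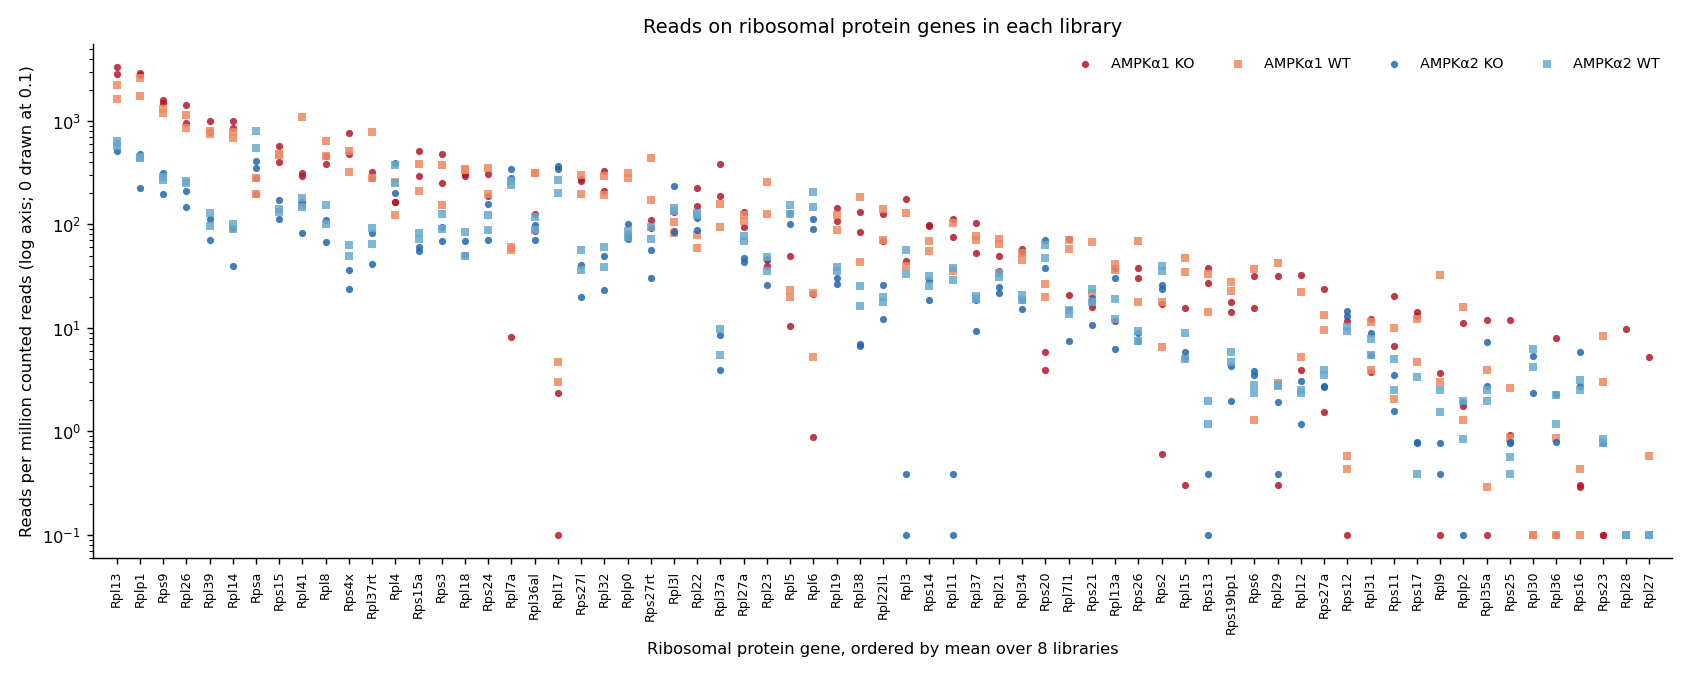
RPM (log axis, 0 drawn at 0.1) of the ribosomal protein genes (a few not drawn), ordered by their mean over the 8 libraries; each point is a library, red circles (KO) and orange squares (WT) for AMPKα1, dark blue circles (KO) and light blue squares (WT) for AMPKα2. Most genes sit higher in the AMPKα1 libraries, whereas Rpl17 and Rpl7a sit higher in AMPKα2, and Rpl3 and Rpl11 reach at most 0.3917 in AMPKα2 KO against 29.22 to 56.91 in AMPKα2 WT.

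In RPM, all 4 AMPKα1 libraries lay above all 4 AMPKα2 libraries for 32 members, and over all genes this held for 37.2% of 15378. The opposite order held for 9 members (Rpl5, Rpl6, Rpl7a, Rpl17, Rpl30, Rps2, Rps16, Rps20 and Rpsa), and for 7.55% of all genes. Without the sites at snoRNA ends, 69 members had a site left, 33 lay above in AMPKα1 and 1, Rps16, in AMPKα2. The remaining 29 members overlapped with all sites counted. Rps16 rested on 3 reads in the AMPKα1 libraries and 39 in the AMPKα2 libraries.

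In AMPKα1 KO mice no member passed the test. Of the 70 genes, 68 had at least 16 reads in the 4 libraries and were tested at gene level. edgeR's quasi-likelihood test called 0 of them at an adjusted p below 0.1, with a background of 0% (0 of 13941 genes). At an unadjusted p below 0.05 there were 4 members, or 5.88%, against 4.22% of all genes. The fitted values were lower in KO for 43 members and higher for 25, with a median log2 fold change of -0.19 against -0.03 over all genes. By library totals in place of TMM factors, the member median became 0.07 and that of all genes shifted by 0.25 on the log2 scale; relative to all genes it stood at -0.16 with TMM and -0.14 by library totals. The member and all-gene medians were -0.17 and -0.15 without AMPKα1 KO 1, -0.26 and -0.24 without KO 2, -0.10 and 0.08 without WT 1, and -0.09 and 0.19 without WT 2. The spread between libraries was wide, with a biological coefficient of variation of 104%.

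The lowest p-values belonged to Rplp0, Rpl23, Rpl36al and Rps27rt, all lower in KO. Rplp0 had 75.20 and 80.49 RPM in KO and 278.2 and 315.2 in WT, so that the groups were far apart. Its log2 fold change was -2.18 ± 0.40 (SE, n = 2 against 2, edgeR adjusted p = 0.763, unadjusted p = 0.00124). Rpl23 had 45.18 and 39.33 RPM in KO against 127.2 and 257.2 in WT, without overlap. Its log2 fold change was -2.39 ± 0.48 (edgeR adjusted p = 0.763). Rpl36al had 86.57 and 127.1 in KO against 315.0 and 314.3 in WT, and its log2 fold change was -1.83 ± 0.42 (edgeR adjusted p = 0.763).

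Rps27rt, a retrotransposed copy of Rps27, had 110.2 and 92.38 RPM in KO and 443.1 and 172.2 in WT. The WT values differ by more than the gap between KO and AMPKα1 WT 2, and the log2 fold change of -1.93 ± 0.63 (edgeR adjusted p = 0.763) became -0.84 without AMPKα1 WT 1. Rps20, of the small subunit head, counted 20 and 13 reads in KO against 46 and 91 in WT (log2 fold change -2.46 ± 1.15, edgeR adjusted p = 0.763). DESeq2 at its defaults called 3 members lower, Rplp0 (adjusted p = 0.0110), Rpl23 (0.0329) and Rpl36al (0.0541), and 0 higher. It called 0.941% of all genes lower. Over all alternatives the adjusted p ran from 0.0110 to 0.984 for Rplp0, from 0.0329 to 0.999 for Rpl23 and from 0.0541 to 0.984 for Rpl36al. With all 8 libraries fitted together, edgeR called 4 members lower, these 3 and Rps20, where 0.603% of all genes were called lower. That fit gives both models the same dispersion per gene, although their biological coefficients of variation were 104% (AMPKα1) and 26.2% (AMPKα2).

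Rpl22, which binds viral and cellular RNAs besides rRNA and can be dispensed with by the ribosome, had the lowest p-value on the other side. It had 223.3 and 151.8 RPM in AMPKα1 KO and 78.75 and 58.85 in WT, with no overlap (log2 fold change 1.17 ± 0.50, edgeR adjusted p = 0.763). Rpl37a had 188.3 and 380.2 in KO against 94.32 and 157.6 in WT (log2 fold change 0.94 ± 0.47, edgeR adjusted p = 0.763), and its log2 fold change was 0.41 without AMPKα1 KO 2. Rpl28 and Rps12 were also among the 5 lowest p-values on that side, but all their KO reads (32 and 38) came from AMPKα1 KO 2, against 0 and 0 and 1 and 2 reads in WT, so no fold is given.

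Several members stood apart in AMPKα1 WT 1 alone. Rpl41, the shortest ribosomal protein, had 1082 RPM there and 152.7 to 315.6 in the other 3 AMPKα1 libraries. Rpl37rt, a retrotransposed copy of Rpl37, had 773.2 against 278.4 to 322.0. That library was also the one with the raised pseudogene share. Their log2 fold changes of -1.41 and -1.16 had SEs of 0.91 and 0.61 (edgeR adjusted p = 0.763 each).

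At APS level, 96 member sites were tested in AMPKα1 and edgeR called 0, beside 0.00454% of all sites (2 of 44024). Of the 96, 7 (7.29%) had an unadjusted p below 0.05, against 3.07% of all sites. DESeq2 called 2 lower, those of Rplp0 (log2 fold change of edgeR -2.31 ± 0.51, DESeq2 adjusted p = 0.0628) and Rpl23 (-2.47 ± 0.60, DESeq2 adjusted p = 0.0917), where it called 1.1% of all sites lower. Without AMPKα1 WT 2 edgeR called 6 member sites and 0.445% of all sites lower. With all 8 libraries fitted together, and so with the same dispersion per site in both models, it likewise called 6 member sites, and 3.04% of all sites. The higher side was led by the Rpl22 site at position 152332480 of chromosome 4 (679 and 397 KO reads, 139 and 161 WT reads, 1.16 ± 0.61, edgeR adjusted p = 0.543). It also held a site each of Rpl38 and Rps25 with 70 and 41 reads in AMPKα1 KO 1 and none in the other 3 libraries. Sites with at least 50 reads in either library of a group had no read in the other library in 30.4% of cases in AMPKα1 KO and 5.09% in AMPKα1 WT over all sites, and in 3 of 59 and 1 of 57 cases among member sites.

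**Figure D2:**
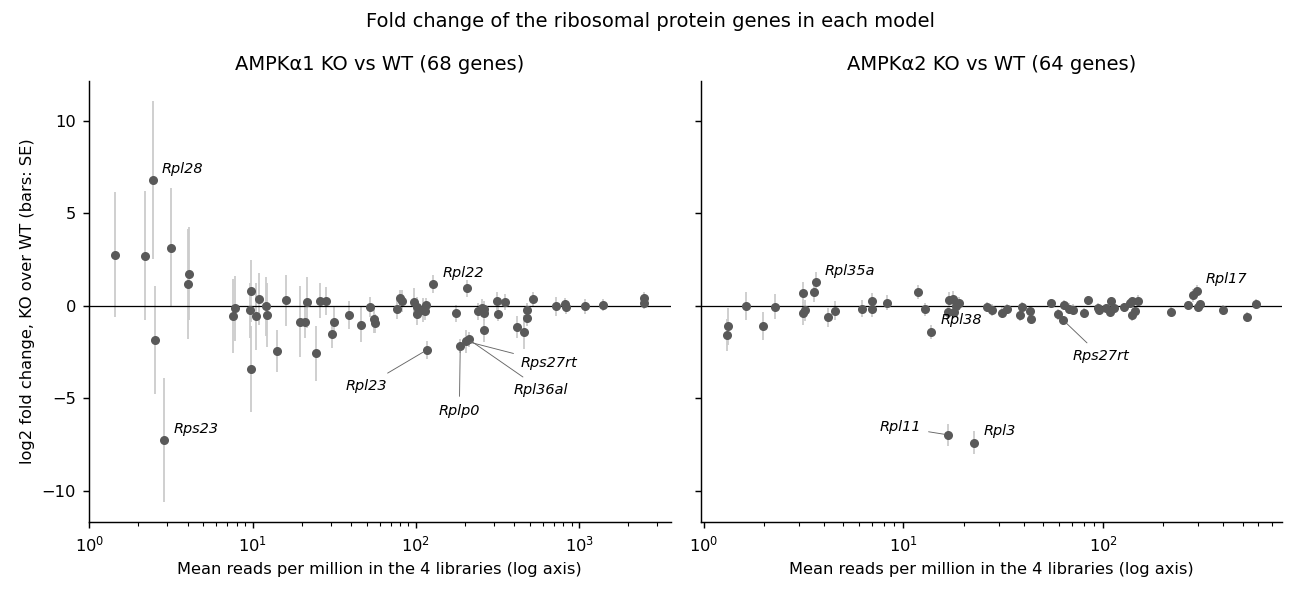
Log2 fold change of KO over WT with its SE (y axis) against mean RPM in the 4 libraries of the model (x axis, log) for the members tested, 68 in AMPKα1 on the left and 64 in AMPKα2 on the right. SEs widen below 10 RPM in AMPKα1, and Rpl3 and Rpl11 lie far below the other members in AMPKα2.

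In AMPKα2 KO mice the reads of Rpl3 and Rpl11 were all but gone, and no other member came near them. Rpl3 counted 1 and 0 reads in KO where WT counted 202 and 86. For Rpl11 the KO counts were 0 and 1 and the WT counts 134 and 75. Both genes had a single APS each in the table, so the gene lost its count with the site. Whether their reads were placed at other sites in KO, such as those of pseudogenes, scaffolds or no gene, was not tested. With both libraries of a group pooled and set against the library totals, the KO count of Rpl3 was 0.413% of WT (exact 95% interval 0.0104% to 2.32%). That of Rpl11 was 0.569% (0.0143% to 3.21%). The intervals hold counting error only and leave out the spread between mice. As the sites were chosen for these counts, the intervals are a description. In the AMPKα1 libraries the same APSs had 152 and 577 (Rpl3) and 257 and 373 (Rpl11) reads in KO, and 92 and 439 and 82 and 356 in WT, with overlap between the groups and log2 fold changes of 0.19 ± 0.77 and 0.25 ± 0.58 (edgeR adjusted p = 0.999 for both).

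Among the other member sites with at least 50 reads in both WT libraries, the ratio of KO to WT means was 0.433 or more. It was 0.479 at the snoRNA-end site of Rpsa and 0.524 at the site of Rps27rt. Over the whole table, 4 of 2307 sites (0.173%) with at least 50 reads in both AMPKα2 WT libraries had at most 3 in both KO libraries. They were the sites of Rpl3, Rpl11, Fndc5 (chromosome 4, position 129143300) and Ptp4a2 (chromosome 4, position 129849979). Among member sites, 49 met the WT condition. In the opposite direction 2 sites of 2067 met the rule, on scaffolds outside the chromosomes, and 1 of them was also given to Fndc5, with 110 and 172 KO reads against 1 and 1 WT reads. Rpl11 lies on chromosome 4 like Prkaa2, 30.9 Mb away, and Rpl3 on chromosome 15. Whether the position of Rpl11 bears on its reads was not tested.

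**Figure D3:**
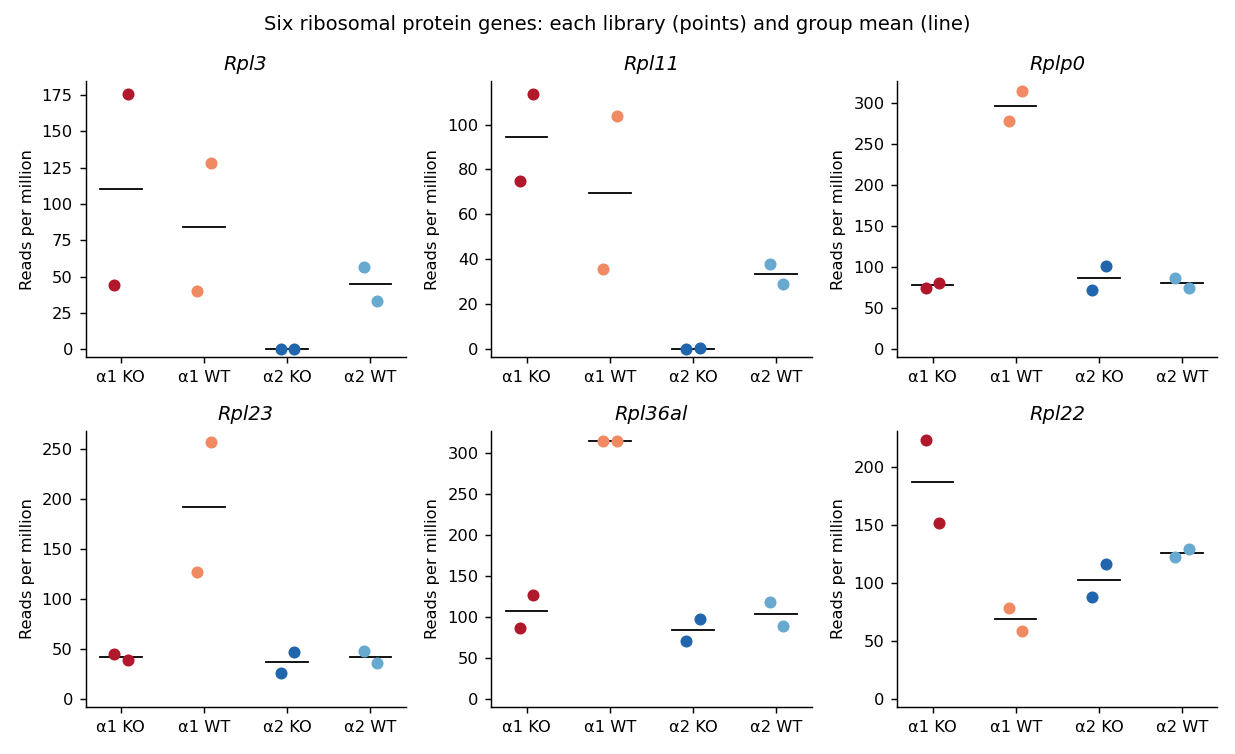
RPM (y axis, from 0) of Rpl3, Rpl11, Rplp0, Rpl23, Rpl36al and Rpl22 in each library (points) with the mean of 2 libraries (line) for AMPKα1 KO and WT and AMPKα2 KO and WT. Rpl3 and Rpl11 are near 0 in both AMPKα2 KO libraries only, while in AMPKα1 the KO points of Rplp0, Rpl23 and Rpl36al lie below and those of Rpl22 above the WT points.

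Other reads from the Rpl3 locus were present in AMPKα2 KO libraries. The APS at the 3′ end of Snord83b, which lies inside Rpl3, had 256 and 367 KO reads against 558 and 441 WT reads (log2 fold change -0.41), and no read in any AMPKα1 library. No site at a snoRNA end was found within Rpl11.

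Of the 64 members tested in AMPKα2, edgeR called 2 lower, Rpl11 and Rpl3, and 0 higher, while over all 10552 genes it called 0.313% lower and 0.389% higher. Since these are the genes for which the family was taken up, nothing is read from that count. With all 8 libraries fitted together it called 1 member and 0.0379% of all genes lower. With no filter on low counts it called 3 members, Rpl38 besides this pair, and 0.945% of all genes lower. At APS level, 2 of 116 member sites were called lower, the same pair, where 0.0301% of all sites were lower and 0.0258% higher. The count of called sites was 0 without AMPKα2 KO 2 and 0 without AMPKα2 WT 2. Of the 64 members, 43 had values below 0 and 21 above 0, with a median log2 fold change of -0.17 against -0.01 over all genes. By library totals the medians were -0.32 and -0.17, and without AMPKα2 KO 2 they were -0.11 and -0.04. The AMPKα2 libraries agreed far better than those of AMPKα1, with a biological coefficient of variation of 26.2%.

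Rps13 had 0 and 1 KO reads against 7 and 3 WT reads, too few to be tested. Rpl38, which takes part in translating Hox mRNAs, had 6.659 and 6.948 RPM in KO and 25.36 and 16.36 in WT, log2 fold change -1.41 ± 0.37. Rps4x, of the small subunit body, had 23.90 and 36.67 against 62.83 and 49.86 (-0.72 ± 0.25), and Rps27rt 30.16 and 56.75 against 93.83 and 72.07 (-0.79 ± 0.25). KO and WT did not overlap for these 3 genes, which were named for their low p-values. The share of all genes without overlap was not analysed here, so nothing is read from this. On the other side, Rpl17 had 363.5 and 344.7 RPM in KO and 201.2 and 270.7 in WT (0.81 ± 0.32, and 0.40 without AMPKα2 KO 1). At snoRNA ends lay 99.7% of its AMPKα2 reads. Rpl7a had 340.4 and 278.3 RPM against 242.9 and 262.6 (0.55 ± 0.33), with 81.2% of its AMPKα2 reads at snoRNA ends. Rpl35a had 7 and 19 reads against 9 and 5 (1.27 ± 0.56), but 0 and 0 against 2 and 1 at its site past the gene end. By site, the highest AMPKα2 values with the lowest p were those of sites in Rps3 (7 and 13 KO reads, 4 and 3 WT reads), Rpl35a (7 and 19, 7 and 4), Rpl7a (174 and 135, 131 and 93), Rpl17 (861 and 835, 629 and 634) and Rps24 (35 and 183, 69 and 51). In the last, AMPKα2 KO 1 lay below both WT libraries and the log2 fold change of 1.00 became -0.16 without AMPKα2 KO 2. Rplp0, Rpl23 and Rpl36al, which led the AMPKα1 comparison, had log2 fold changes of 0.28 ± 0.23, -0.05 ± 0.26 and -0.11 ± 0.24 in AMPKα2.

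The difference between the KO effects of the models was tested as an interaction over 70 members. edgeR called 1 member, Rpl11, with an AMPKα2 minus AMPKα1 difference of -7.43 on the log2 scale, and 0.065% of all genes. As this contains the AMPKα2 comparison, no p-value is given. The count of members called lower was 0 in 6 of the 8 fits that left out a library. DESeq2 called 4 members with a higher value in AMPKα2 (Rplp0, Rpl23, Rpl36al and Rps20), where it called 1.24% of all genes higher. It called 2 with a lower value (Rpl3 and Rpl11), where it called 0.366% of all genes lower. As the family was taken up for Rpl3 and Rpl11, nothing is read from the calls of this pair.

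The models differed most plainly at the snoRNA ends inside these genes. The 46 sites took 91 reads in the 4 AMPKα1 libraries together and 54430 in the 4 AMPKα2 libraries. By library this was 0, 36, 7 and 48 reads in AMPKα1 KO 1, KO 2, WT 1 and WT 2, and 9874, 10970, 20365 and 13221 in the AMPKα2 libraries in the same order. In 44 of the 46 sites no AMPKα1 library had a read, and every one of the 46 had a read in every AMPKα2 library. Of the 91 AMPKα1 reads, 82 were at a site in Rpl6.

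The Snora7a end in Rpl32 had the most reads, 1281 and 1520 in AMPKα2 KO and 3095 and 1784 in WT. The Snord100 end in Rps12 had 415 and 1046 against 1952 and 1249, and the Snora21 end in Rpl23 505 and 883 against 1575 and 1169. KO was below WT in each. In the AMPKα2 fit over the 46 sites, 31 values were below 0 and 15 above 0, with a median of -0.41, and none was called. Over all sites tested, 49.2% were below 0 and the median was 0.01. In RPM, which uses library totals, the sum over the sites was 3868 and 4235 in KO and 5738 and 5150 in WT, without overlap. The TMM factors of the gene-level fit were 0.739 and 1.18 in KO and 1.16 and 0.992 in WT. Divided by these factors, the sums of KO and WT overlap.

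Among the sites given to the host gene, high counts stood at snoRNA ends in Rpsa (543 and 595 reads in AMPKα2 KO, 1846 and 1036 in WT), Rpl17 (861 and 835, 629 and 634), Rpl6 (277 and 216, 689 and 355) and Rpl7a (393 and 317, 345 and 304). The 22 host-assigned sites took 31.9% and 21.1% of the family's reads in AMPKα2 KO, 24.1% and 26.1% in AMPKα2 WT, and at most 0.0676% in any AMPKα1 library. They held more AMPKα2 reads than all other sites of the gene in 9 of 13 hosts. In Rpl17 they made up 99.7% of its AMPKα2 reads, in Rps12 96.9%, in Rpl6 94.5%, in Rps2 93.0%, in Rpl5 87.3% and in Rpl7a 81.2%. In Rpl30 no other site was in the table.

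**Figure D4:**
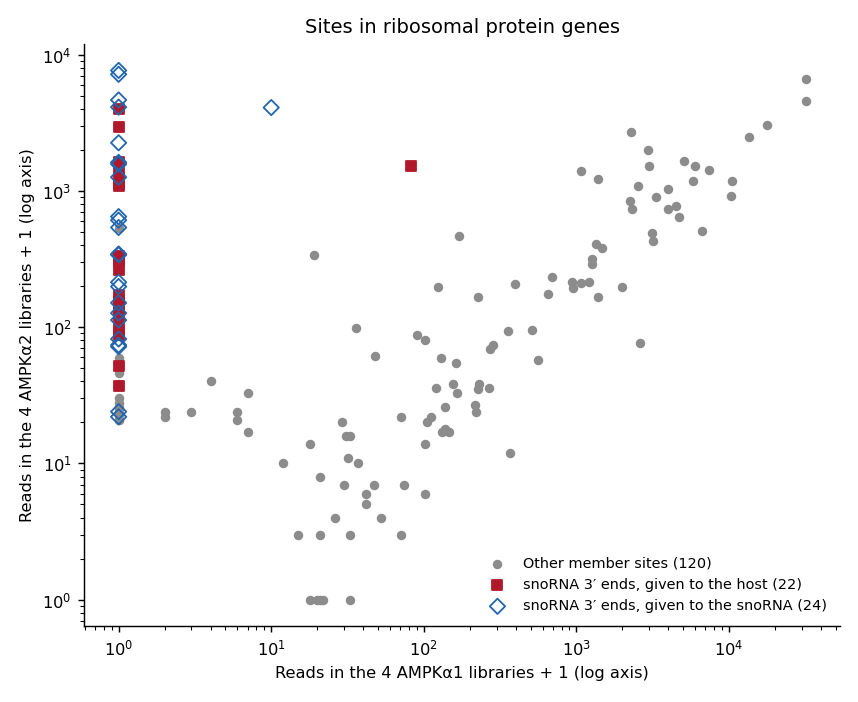
Reads of each site in the 4 AMPKα1 libraries (x axis) and the 4 AMPKα2 libraries (y axis), both plus 1 on log axes. The 22 snoRNA-end sites given to host genes (red squares) and the 24 given to snoRNAs (blue diamonds) line the left edge, 44 of the 46 at no AMPKα1 read, whereas the 120 other member sites (grey) mostly rise along both axes.

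The main APS of several hosts differed with the model. Among 31 members with several sites and more than 3 reads at the main site in each group, the main site differed between groups in 10. The share over all genes with several sites was not analysed here, so this count is not read as particular to the members. In 6 of them (Rpl5, Rpl7a, Rpl17, Rps2 and Rpsa among them) it lay at a snoRNA end in both AMPKα2 groups and elsewhere in both AMPKα1 groups. For Rpl7a, of the large subunit, the APS 3 bases past the gene end held all of its 563 AMPKα1 reads, and only 0.881% (KO) and 2.73% (WT) of its AMPKα2 reads. In Rpsa the site nearest the gene end held all AMPKα1 reads, and 37.1% (KO) and 29.9% (WT) of AMPKα2 reads. KO and WT of a model shared the main site in all but 2 of the 10, Rpl7l1 in AMPKα1 and Rpl27a in AMPKα2.

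**Figure D5:**
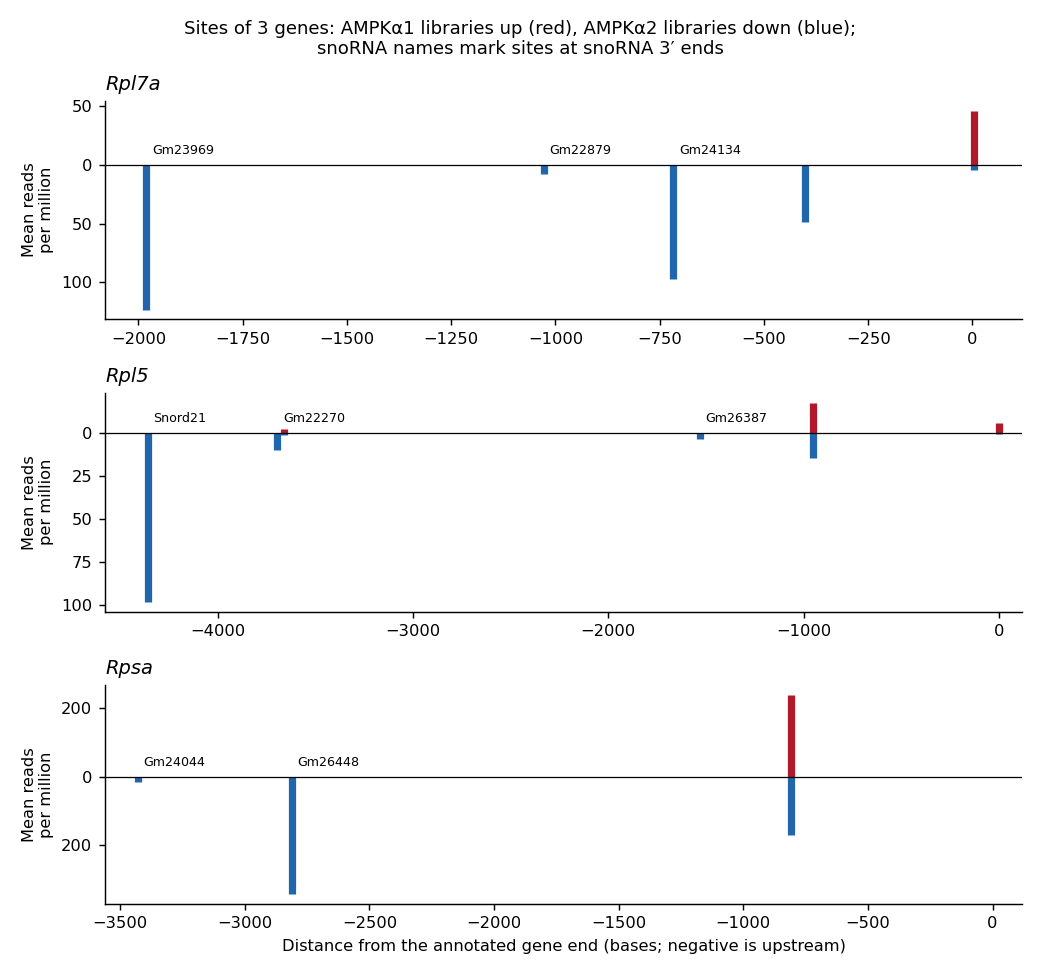
Mean RPM of each APS of Rpl7a, Rpl5 and Rpsa by distance from the annotated gene end (x axis, bases), with the AMPKα1 libraries drawn upward in red and the AMPKα2 libraries downward in blue. Sites at snoRNA ends, marked by the snoRNA name, have bars only on the AMPKα2 side; the short red bar beside Gm22270 in Rpl5 is an antisense site with 32 AMPKα1 reads.

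Leaving these sites out altered host values in AMPKα2. Rpl7a had 181 and 142 other reads in KO and 160 and 106 in WT (log2 fold change 0.81 ± 0.33, against 0.55 with all sites). Most of these reads were at an exonic site (position 26912916), with 174 and 135 in KO and 131 and 93 in WT. The site 3 bases past the gene end went the other way, with 7 and 7 against 29 and 13 (-1.19 ± 0.57). Rpsa had 290 and 438 against 933 and 331 (-0.27 ± 0.28, against -0.59). Rpl17 and Rps12, which had values of 0.81 and 0.73 with all sites, had too few other reads to be tested (10 and 4). No snoRNA-end site was given to Rpl3 or Rpl11.

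Outside the snoRNA ends, 15 of 120 member sites (12.5%) had at least 16 AMPKα2 reads and no AMPKα1 read, next to 12.6% of all sites in the table. With the snoRNA ends included it was 36 of 142 (25.4%). The 15 included an exonic site of Rpl7a (533 reads), an exonic site of Rpl37rt (134) and 4 of Rpl3l (20 to 126). The reverse held for 5 member sites, or 3.52%, and for 11.4% of all sites. Over the whole series 234 sites lay at snoRNA ends and 209 of them (89.3%) had no AMPKα1 read. They took 2.89% to 3.53% of reads in AMPKα2 libraries and 0.00684% to 0.0113% in AMPKα1 libraries. AMPKα2 libraries also had 15.3% to 17.9% of reads on sites given to no gene, and AMPKα1 libraries 1.88% to 2.85%. The part of age, strain or library preparation in this contrast cannot be told apart from that of the model.

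By position, 95 member sites were in exons of an annotated transcript, 26 downstream of the gene, 17 in introns and 4 antisense to the gene. Of the 17 intronic sites 9 were at snoRNA ends. Leaving snoRNA ends aside, the highest site of 36 of 69 members lay within 10 bases of the annotated gene end and that of 27 more than 100 bases before it. Members had fewer sites than other genes, with 37 at 1 APS and 47.1% at more than 1, against 66.0% of all protein coding genes. Rpl3l had the most, 8, with Rpl7l1 next at 7.

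Among the paralogs, Rpl3l held 74.7% and 33.1% of Rpl3 plus Rpl3l reads in AMPKα1 KO, 72.8% and 39.2% in AMPKα1 WT, 70.3% and 81.2% in AMPKα2 WT and 99.5% and 100% in AMPKα2 KO. As the denominator holds the Rpl3 reads, the AMPKα2 values are a description. Rpl3l itself had 85.40 and 233.5 RPM in AMPKα2 KO and 134.4 and 144.9 in WT, with WT inside the KO range (log2 fold change 0.26 ± 0.29), and 130.9 and 87.20 against 106.4 and 82.44 in AMPKα1 (-0.06 ± 0.51, edgeR adjusted p = 0.999). Its main site, 3 bases past the gene end, held 82.9% to 88.5% of its reads in every group.

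Rpl22l1, the paralog of Rpl22, made up 23.6% and 45.2% of their joint reads in AMPKα1 KO and 64.1% and 54.6% in AMPKα1 WT, without overlap. In AMPKα2 it was 12.1% and 18.4% in KO and 12.7% and 13.3% in WT. Rpl22l1 had 68.79 and 125.3 RPM in AMPKα1 KO against 140.6 and 70.79 in WT, where the ranges overlapped (log2 fold change -0.45 ± 0.60, edgeR adjusted p = 0.990). Rps27l, a stress-induced copy of Rps27, had log2 fold changes of -0.19 ± 0.46 in AMPKα1 (edgeR adjusted p = 0.999) and -0.50 ± 0.33 in AMPKα2. Rpl7l1 had -0.73 ± 0.74 (edgeR adjusted p = 0.930) and -0.20 ± 0.34. Rpl37rt took 75.5% to 91.6% of Rpl37rt plus Rpl37 reads in the 8 libraries. How reads that match several near-identical copies were placed is not given in the sources used here, so values of retrotransposed copies and their parents are uncertain.

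The other genes of the pathway gave no call in edgeR. Of 50 listed genes in the table (other ribosomal proteins, elongation factors and similar mRNAs, and ribosome assembly factors), 49 were tested in AMPKα1 with 17 values above 0, 31 below 0 and a median of -0.45, and 47 in AMPKα2 with 22 above 0, 24 below 0 and a median of -0.06. Fau, which encodes RPS30 as a fusion, had a log2 fold change of -0.19 ± 0.53 in AMPKα1 (edgeR adjusted p = 0.999) and -0.41 ± 0.32 in AMPKα2. Among the assembly factors of AMPKα1, Tsr1 counted 0 and 0 reads in KO against 21 and 112 in WT, Ltv1 0 and 0 against 35 and 42, and Rrp1 84 and 75 against 161 and 207. Their edgeR adjusted p was 0.763 each, and DESeq2 called Tsr1 (adjusted p = 0.0371). All 3 act in the maturation of ribosomal subunits. Nop10, an H/ACA snoRNP protein named here after its values were seen, stood higher in KO (3663 and 2593 reads) than in WT (392 and 1621, log2 fold change 1.36 ± 0.50, edgeR adjusted p = 0.763). The other H/ACA snoRNP proteins listed did not share this rise. Nhp2 had -2.18 ± 0.73 (edgeR adjusted p = 0.763), Gar1 -1.75 ± 1.56 (0.88) and Dkc1 0.26 ± 0.58 (0.999). In AMPKα2 the lowest p-values belonged to Polr1a (26 and 43 reads in KO, 37 and 13 in WT), Naca (129 and 174, 113 and 123) and Eif6 (22 and 56, 95 and 70).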

How the data were processed

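Gastrocnemius WTTS-seq libraries of 4 groups with 2 mice each were used. The authors sequenced them on an Ion PGM, mapped reads to the mouse genome (GRCm38.p5 in the submitters' processing notes), clustered read ends within 24 bases into APSs and deposited raw counts per APS and library, without normalization and with at least 16 reads over the 8 libraries. The members and gene lists were chosen with earlier results of these data known. Counts were summed per gene. Log2 fold changes and p-values came from edgeR 4.0.16 (quasi-likelihood, robust, TMM factors, at least 16 reads over the fitted libraries, Benjamini-Hochberg over all rows, adjusted p below 0.1), and SEs from the F statistic are approximate. DESeq2 1.42.0 was an alternative. Code was tested on simulated data. The p-values measure the spread between 2 mice a group. RPM used library totals, which include sites that name no gene (1.88% to 17.9% of reads), and those sites were also tested as APSs. The precision is set by 2311242 to 3549156 reads a library, and intervals cover counting error only. Replicate numbers were not treated as pairs of mice, except in the replicate block. The correlation of same-numbered deviations was 0.028 in AMPKα1 and 0.003 in AMPKα2. With 2 mice a group this cannot show whether mice were paired. Positions were compared with GENCODE M21 (GRCm38). Named genes were Prkaa1, Prkaa2, Rpl3, Rpl11, paralogs with their parents, the highest and lowest members, the 5 lowest p-values per model and direction at gene and APS level, the 5 members with the most sites, those whose main site differed between groups, and pathway genes called or with the 3 lowest p-values. Others named were chosen after their values were seen. Results of a few genes that these rules name are not reported here.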

Additional observations from a re-analysis of the deposited data

Results flagged for a closer look

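Rpl11 had a log2 fold change of 0.25 in AMPKα1 and -6.99 in AMPKα2, and the AMPKα2 minus AMPKα1 difference of -7.43 was called by edgeR. The gene had been taken up for its AMPKα2 values, so this is a description, and in 6 of the 8 fits that left out a library edgeR called no member lower. The other 2 genes had KO on opposite sides of WT in the models after TMM scaling, and edgeR did not call either difference. For Rplp0 the values were -2.18 ± 0.40 in AMPKα1 and 0.28 ± 0.23 in AMPKα2, where RPM overlapped between KO (71.69 and 101.9) and WT (86.78 and 75.18). Its difference of 2.45 was called by DESeq2. For Rpl17 the values were -1.86 ± 2.9 (8 and 0 KO reads, 7 and 16 WT reads) and 0.81 ± 0.32, a difference of 2.64, with 99.7% of its AMPKα2 reads at snoRNA ends.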

How the results depend on the processing

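The AMPKα1 gene-level count of 0 members lower became 3 with DESeq2 and 4 with all 8 libraries, and stayed at 0 to 0 when a library was left out. The AMPKα2 gene-level count of 2 lower became 1 with all 8 libraries and 3 with no filter. At APS level the AMPKα1 count of 0 lower became 2 with DESeq2 and 6 with all 8 libraries, and ranged from 0 to 6 with a library left out (6 without AMPKα1 WT 2). The AMPKα2 count of 2 became 0 with all 8 libraries and ranged from 0 to 2 (0 without AMPKα2 KO 2 or WT 2). For the difference between models, 0 members higher became 4 with DESeq2 and ranged from 0 to 7 with a library left out (7 without AMPKα1 KO 1), and 1 lower became 2 with DESeq2, 0 with the highest site only, library totals, the replicate block, snoRNA ends left out or adjusted p below 0.05, and ranged from 0 to 3. The member median became 0.07 in AMPKα1 with library totals, and in AMPKα2 -0.32 with library totals, -0.11 with all 8 libraries and -0.14 to -0.11 with a library left out. With the replicate block the medians were -0.23 (AMPKα1) and -0.13 (AMPKα2) and no count of calls within a model changed. The member share became 2.15%, 2.24%, 0.65% and 0.779% with pseudogenes (AMPKα1 KO and WT, AMPKα2 KO and WT), 0.387% and 0.466% in AMPKα2 KO and WT without snoRNA ends, and 0.749% in AMPKα2 WT over reads given to genes. Leaving out snoRNA ends and counting only reads given to genes were chosen after seeing the data. With a library left out, the lone library of its group is assumed to vary like the other group. Of 638 values of single genes and sites under alternatives, 17 changed sign. By library totals AMPKα1 values became 0.11 for Rps27l and 0.21 for Rpl3l. With a library left out, AMPKα1 values ranged from -0.23 to 1.01 for Rpl11, -1.04 to 1.05 for Rpl3, -0.56 to 0.38 for Rps27l, -0.46 to 0.33 for Rpl3l and -0.94 to 0.36 for Rpl22l1, and AMPKα2 values from -0.0015 to 0.95 for Rpl7a, -0.16 to 1.62 for the Rps24 site, -0.27 to 0.05 for Rpl22, -0.19 to 0.60 for Rpl3l and -0.10 to 0.35 for Rpl22l1. Without changing sign, AMPKα1 values ranged from -1.98 to -0.08 for Rpl7l1 and AMPKα2 values from 0.30 to 1.10 for Rps12 and -0.90 to -0.0046 for Rps27l. The cause was not tested. Depth limits members under 10 RPM, whose libraries often held no read.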
